A study of Homo sapiens with 8 samples.

Results

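The comparison described here sets NALM6 cells with an induced nucleosome binding-deficient form of the chromatin protein HMGN1 (S20,24E) against NALM6 cells with induced wild-type HMGN1. Its libraries were taken by their labels, and they are 5 of the 8 in the series: 3 with induced wild-type HMGN1 (A, B and C, below "wild type") and 2 with the induced mutant (A and B, below "mutant"). The cells of all 5 received 100 ng/ml doxycycline for 6 h and 100 µM 4-thiouridine for the last 5 h. The other 3 libraries had vehicle in place of doxycycline, came from the line with wild-type HMGN1, received the same 4-thiouridine and are given beside the results as "vehicle". NALM6 is an established line of human precursor B-cell acute lymphoblastic leukaemia. HMGN1 form and cell line differ together and cannot be told apart, since mutant cells without doxycycline were not analysed here. The labels call the libraries biological replicates without saying whether they were separate cultures, so p-values measure only the spread between these libraries, which may be technical.

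HMGN1 is a small non-histone protein that binds the nucleosome core through a short conserved domain and loosens the packing of chromatin. The gene lies in the Down syndrome critical region of chromosome 21, and additional copies have been linked to precursor B-cell leukaemia. In SLAM-seq, 4-thiouridine enters RNA as it is made, and chemical modification then makes it read as cytosine, so that T-to-C conversions mark recent transcripts among older ones.

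The mutant form differs from wild type at serines 20 and 24, which lie in the nucleosome-binding domain. The coding stretch below shows where they are, with both serine codons in capitals as the reference has them; the codon changes of the mutant construct are not printed. The same stretch is shown for the pseudogenes HMGN1P36 and HMGN1P4, chosen after the values of their host genes were seen, since reads of an introduced HMGN1 copy could be assigned to the genes that contain them. Sequences are 5′ to 3′ from GENCODE 29 (GRCh38), where HMGN1 is on the minus strand of chromosome 21.
HMGN1: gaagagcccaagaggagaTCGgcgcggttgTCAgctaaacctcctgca
HMGN1P36: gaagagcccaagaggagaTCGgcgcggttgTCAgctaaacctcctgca
HMGN1P4: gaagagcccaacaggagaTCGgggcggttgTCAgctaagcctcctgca

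HMGN1P36 matched HMGN1 in all 48 bases of this stretch and in 97.0% of 298 aligned coding bases, and it lies at chr2:97827248-97827545, inside TMEM131 on the opposite strand. HMGN1P4 differed in 3 of the 48 bases, matched in 96.5% of 288 aligned bases, and lies at chr1:182942115-182942404, inside C1orf14 (SHCBP1L) on the same strand. The annotation holds 31 processed HMGN1 pseudogenes in all, and others are as near: HMGN1P37, inside MPP1, also matched all 48 bases, and HMGN1P3, inside ACTN1, differed in 2. HMGN1P38 differed in 1 of the 48 bases and matched in 98.3% of 300 aligned coding bases.

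Each gene was followed in 4 measures. All reads were the deposited CPM, the reads of a gene scaled to the size of the library. The conversion rate was the deposited share of converted bases, printed in percent, and tested on the log2 scale after subtracting the median of its library. New RNA was CPM multiplied by that share, so that it depends on the other measures. Converted reads came from a separate deposited table in FPKM. A gene was called at a Benjamini-Hochberg adjusted p under 0.05 in limma, over all genes tested. The groups are said not to overlap where both mutant libraries lay above, or both below, all 3 wild-type libraries on the tested scale, and log2 differences are mutant minus wild type.

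Depth was 14.4, 7.99 and 13.8 M reads in wild type A, B and C and 10.4 and 11.6 M reads in mutant A and B. All 13 precursor B-cell markers averaged at least 1 CPM in each group, and summed to 1691 to 1866 CPM in wild type and 1586 to 1716 CPM in mutant. Of the markers of other cells, 3 of 16 for T and NK cells reached that mean in both groups, 4 of 16 for myeloid cells and 0 of 13 for erythroid and megakaryocytic cells. Summed T and NK markers were 59.3 to 75.7 CPM in wild type and 62.4 to 82.9 CPM in mutant. CD3D, CD2, ELANE, S100A8, HBB and PF4 had no read in any library. Summed myeloid markers were 387.4 to 462.5 CPM in wild type and 370.9 to 451.3 CPM in mutant, and 3 of 14 stromal and epithelial markers passed in both, summing to 10.4 to 11.8 and 7.50 to 8.68 CPM.

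Libraries of a single group differed from each other about as much as the groups did. The root mean square log2 difference in all reads, over 12459 genes, was 0.38 to 0.68 for the 4 pairs within a group and 0.30 to 0.68 for the 6 pairs of a mutant with a wild-type library. Wild type B and mutant B were the closest pair of all, at 0.30, and wild type B and C, of 1 group, differed by 0.68. Median conversion rates were 6.68%, 5.40% and 7.315% in A, B and C of the wild type and 6.805% and 5.43% in A and B of the mutant. The A library of the mutant and the A and C libraries of the wild type thus converted more than both B libraries. In bulk RNA, fewer cells of a type and less RNA per cell cannot be told apart.

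**Figure D1:**
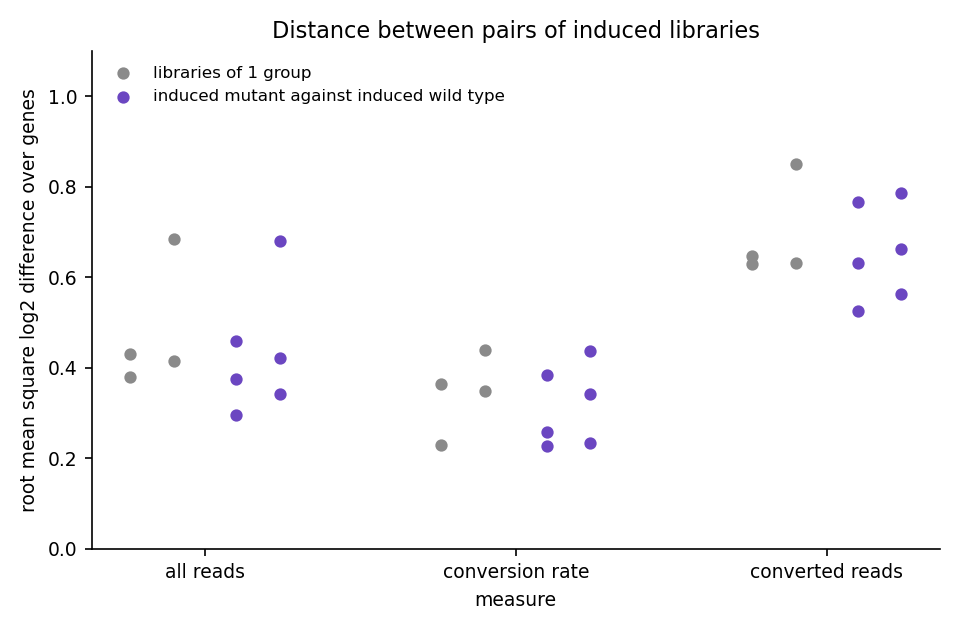
Root mean square log2 difference over genes (vertical axis) for each pair of induced libraries, in all reads, conversion rate and converted reads. Grey points are pairs within a group and purple points are pairs of a mutant with a wild-type library; in all reads the within-group pairs span 0.38 to 0.68 and the between-group pairs 0.30 to 0.68.

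HMGN1 itself was checked first. All reads of HMGN1 were 251.5, 216.8 and 317.2 CPM in wild type A, B and C and 223.2 and 199.5 CPM in mutant A and B, beside 191.0, 153.3 and 145.4 CPM with vehicle. All 5 induced libraries lay above the 3 vehicle libraries, and the 2 induced groups overlapped. The log2 difference of mutant and wild type was -0.29 (exact two-sided permutation test, p = 0.3, where 3 against 2 libraries cannot go below 0.1).

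The conversion rate of HMGN1 was 4.09%, 3.24% and 7.12% in wild type and 4.64% and 1.996% in mutant, against 1.04%, 1.66% and 1.69% with vehicle. Every induced library lay above every vehicle library, and mutant A lay between wild type A and C. The difference was -1.50 percentage points (exact permutation test, p = 0.6). Converted reads of HMGN1 were 7.75, 5.39 and 4.94 FPKM in wild type and 4.15 and 2.62 FPKM in mutant, a log2 difference of -0.84 without overlap (exact permutation test, p = 0.1). On the log2 scale they were 2.95, 2.43 and 2.305 in wild type, 2.05 and 1.39 in mutant, and 1.40, 2.595 and 2.44 with vehicle. Both induced groups thus overlapped with vehicle in converted reads. New RNA of HMGN1 overlapped between the induced groups, with a log2 difference of -0.87 (exact permutation test, p = 0.5).

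C1orf14 and TMEM131 had more reads in each induced library than in any vehicle library, but MPP1 and ACTN1, which hold other near copies, did not. C1orf14 was at 62.6, 45.0 and 103.5 CPM in wild type and 53.7 and 27.6 CPM in mutant, against 13.6, 12.5 and 14.3 CPM with vehicle. TMEM131 was at 36.0, 27.7 and 70.4 CPM in wild type and 18.4 and 11.55 CPM in mutant, against 8.10, 11.1 and 11.4 CPM. Mutant B thus lay barely above the highest vehicle library for TMEM131. Both mutant libraries lay below all wild-type libraries for TMEM131 (log2 difference -1.44, SE 0.36, limma adjusted p = 0.9996), and C1orf14 overlapped (-0.77, SE 0.34). The conversion rate of C1orf14 stood at 6.86% to 12.7% in the 5 induced libraries and at 0.483% to 3.26% with vehicle, and that of TMEM131 at 3.43% to 4.00% and 3.67% to 6.60%. MPP1 was at 33.2, 36.6 and 34.5 CPM in wild type and 25.3 and 29.9 CPM in mutant, against 35.4, 39.7 and 38.8 CPM with vehicle. ACTN1 was at 17.8 to 30.6 CPM in wild type and 16.5 to 23.9 CPM in mutant, against 10.1 to 24.1 CPM. The induced libraries thus overlapped with vehicle for both MPP1 and ACTN1. Of 18 genes that contain an HMGN1 pseudogene, 14 passed the filter in all reads and 0 were called. Whether reads of the introduced copies account for these host values was not tested.

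**Figure D2:**
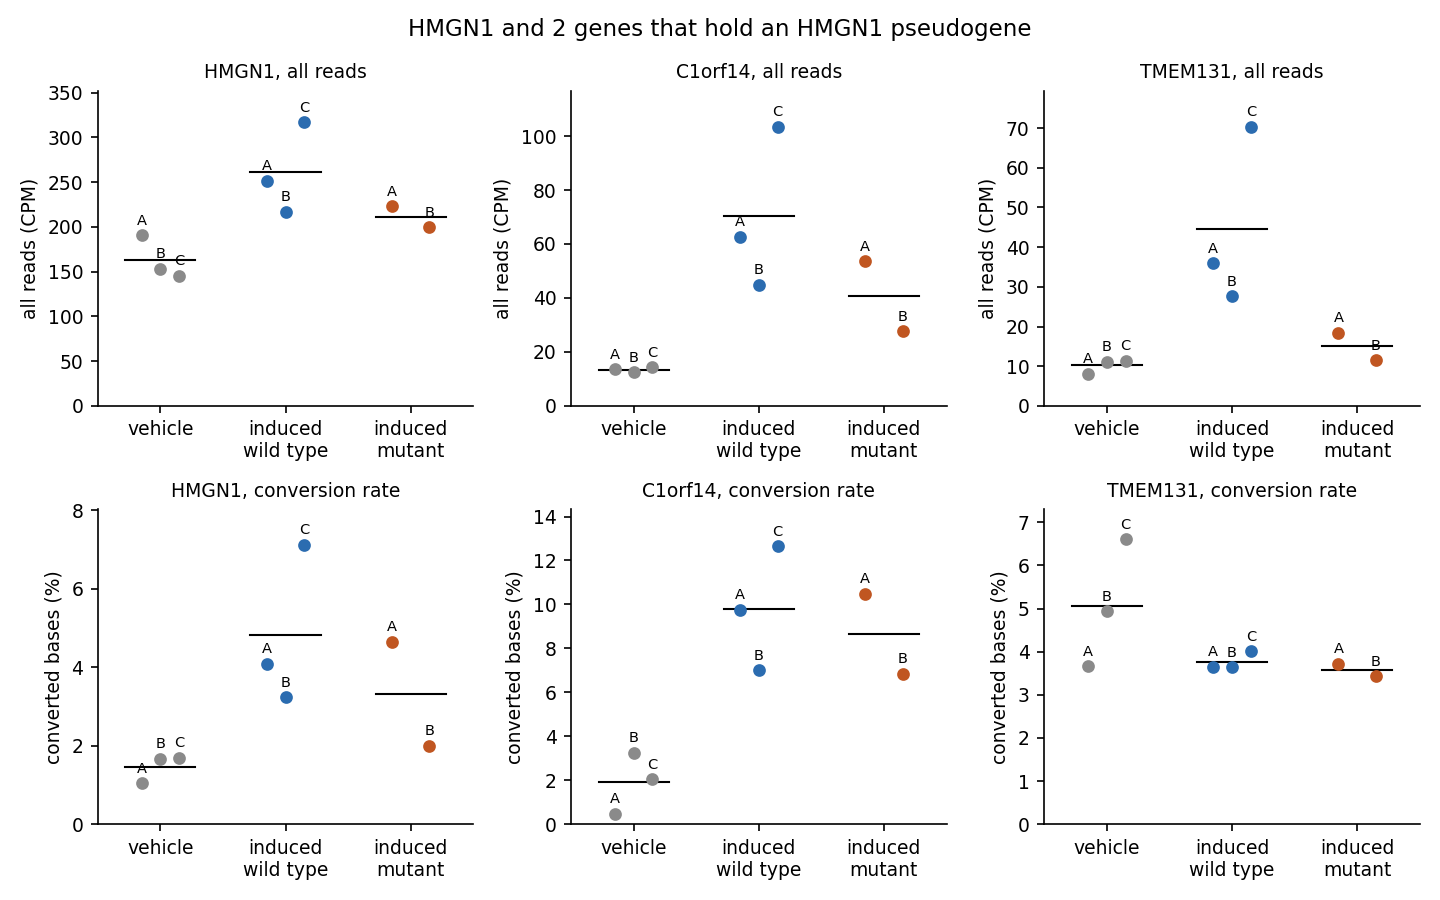
HMGN1 and the pseudogene hosts C1orf14 and TMEM131 by library, as all reads in CPM (top) and conversion rate in percent of bases (bottom). Points are libraries with their replicate letter, bars are group means; TMEM131 in all reads is at 27.7 to 70.4 CPM in wild type and 11.55 to 18.4 CPM in mutant.

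Summed over genes, the difference in converted RNA between the 2 forms lay within the spread of the libraries. Summed converted reads were 1.03-fold in mutant relative to wild type (exact permutation test, p = 0.9). The share of converted bases, weighted by reads, was 4.36%, 3.39% and 5.20% in wild type and 4.65% and 3.41% in mutant, a difference of -0.29 percentage points (exact permutation test, p = 0.8). The sign of both differences turned when single libraries were left out (without mutant A, summed converted reads had a log2 difference of -0.11; without mutant B, the share differed by 0.33 points).

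In all reads, 4 of 12459 genes were called (0.0321%), 3 lower (0.0241%) and 1 higher in mutant (0.00803%). An unadjusted p under 0.05 was reached by 342 genes (2.75%), 310 lower (2.49%) and 32 higher (0.257%). ALDOC, COL5A1 and its overlapping partner LOC101448202 fell and MYBPC2 rose. Without overlap between the groups were 1867 genes (15.0%), 224 of them higher (1.8%) and 1643 lower (13.2%). Of all genes tested, 9141 had a log2 difference below 0 and 3318 above. The median log2 difference of all genes was -0.12. After median centring of the libraries, the split without overlap was 899 higher and 1152 lower. Without centring, the median of all genes was -0.24 without wild type B, -0.20 without mutant A, -0.06 without mutant B and -0.02 without wild type C.

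ALDOC encodes aldolase C, the brain-type form of the glycolytic enzyme that splits fructose bisphosphate. It was at 87.0, 92.8 and 71.5 CPM in wild type, 21.3 and 26.7 CPM in mutant, and 92.9, 103.0 and 87.3 CPM with vehicle. Both mutant libraries lay far below the other 6 (log2 difference -1.76, SE 0.17, adjusted p = 0.0158). Its conversion rate lay the other way, at 1.11%, 0.745% and 1.36% in wild type and 2.60% and 1.64% in mutant (log2 difference 0.65, SE 0.10, adjusted p = 0.395, no overlap). The product of both, new RNA, was at 0.969, 0.691 and 0.971 in wild type and 0.553 and 0.438 in mutant, a smaller log2 difference of -0.51 (SE 0.21, adjusted p = 0.999).

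COL5A1 encodes the alpha-1 chain of type V collagen, a fibrillar collagen of the extracellular matrix. Its level was 12.0, 10.9 and 14.6 CPM in wild type, 1.64 and 1.38 CPM in mutant and 7.31, 13.2 and 11.8 CPM with vehicle (log2 difference -2.42, SE 0.29, adjusted p = 0.0277). Its conversion rate was 1.40%, 1.15% and 1.685% in wild type against 5.53% and 2.78% in mutant. COL5A1 passed the conversion filter only through the libraries where its level is high, so the mutant rates rest on few reads and are given as values without a test. LOC101448202, a non-coding gene that overlaps COL5A1 and may share its reads, was at 9.11, 8.14 and 8.84 CPM in wild type and 0.964 and 0.862 CPM in mutant (-2.34, SE 0.25, adjusted p = 0.0158). Since both mutant libraries are under 1 CPM, LOC101448202 entered the test only through the libraries where it is high. No converted base was recorded for LOC101448202 in any of the 5 induced libraries.

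MYBPC2, the fast skeletal muscle form of myosin-binding protein C, was called higher. It was at 0.765, 1.00 and 1.01 CPM in wild type, 7.33 and 4.74 CPM in mutant and 0.675, 0.955 and 1.01 CPM with vehicle (log2 difference 1.85, SE 0.23, adjusted p = 0.0381). Since wild type and vehicle average under 1 CPM, MYBPC2 entered the test only through the mutant libraries, where it is high. Its new RNA was 0.0506, 0.0847 and 0.0885 in wild type and 0.830 and 0.508 in mutant, and it passed the filter there in the same way. Its conversion rate was 6.62% to 8.72% in wild type and 10.7% to 11.3% in mutant, untested because its level is low.

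None of the 4 was called when wild type A or B, mutant A or B, or vehicle B was left out (ALDOC adjusted p 0.216, 0.0542, 0.402, 0.0536 and 0.0543 in that order), although the log2 difference of ALDOC stayed between -1.92 and -1.60. Without vehicle C or without wild type C, ALDOC and LOC101448202 kept their calls and COL5A1 (adjusted p 0.0618 and 0.0626) and MYBPC2 (0.0987 and 0.0789) did not. On the read counts recovered from the CPM steps, edgeR with TMM scaling called 3 genes (COL5A1, LOC101448202 and MYBPC2) and gave ALDOC an adjusted p of 0.322, while DESeq2 called 14, 9 lower and 5 higher.

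**Figure D3:**
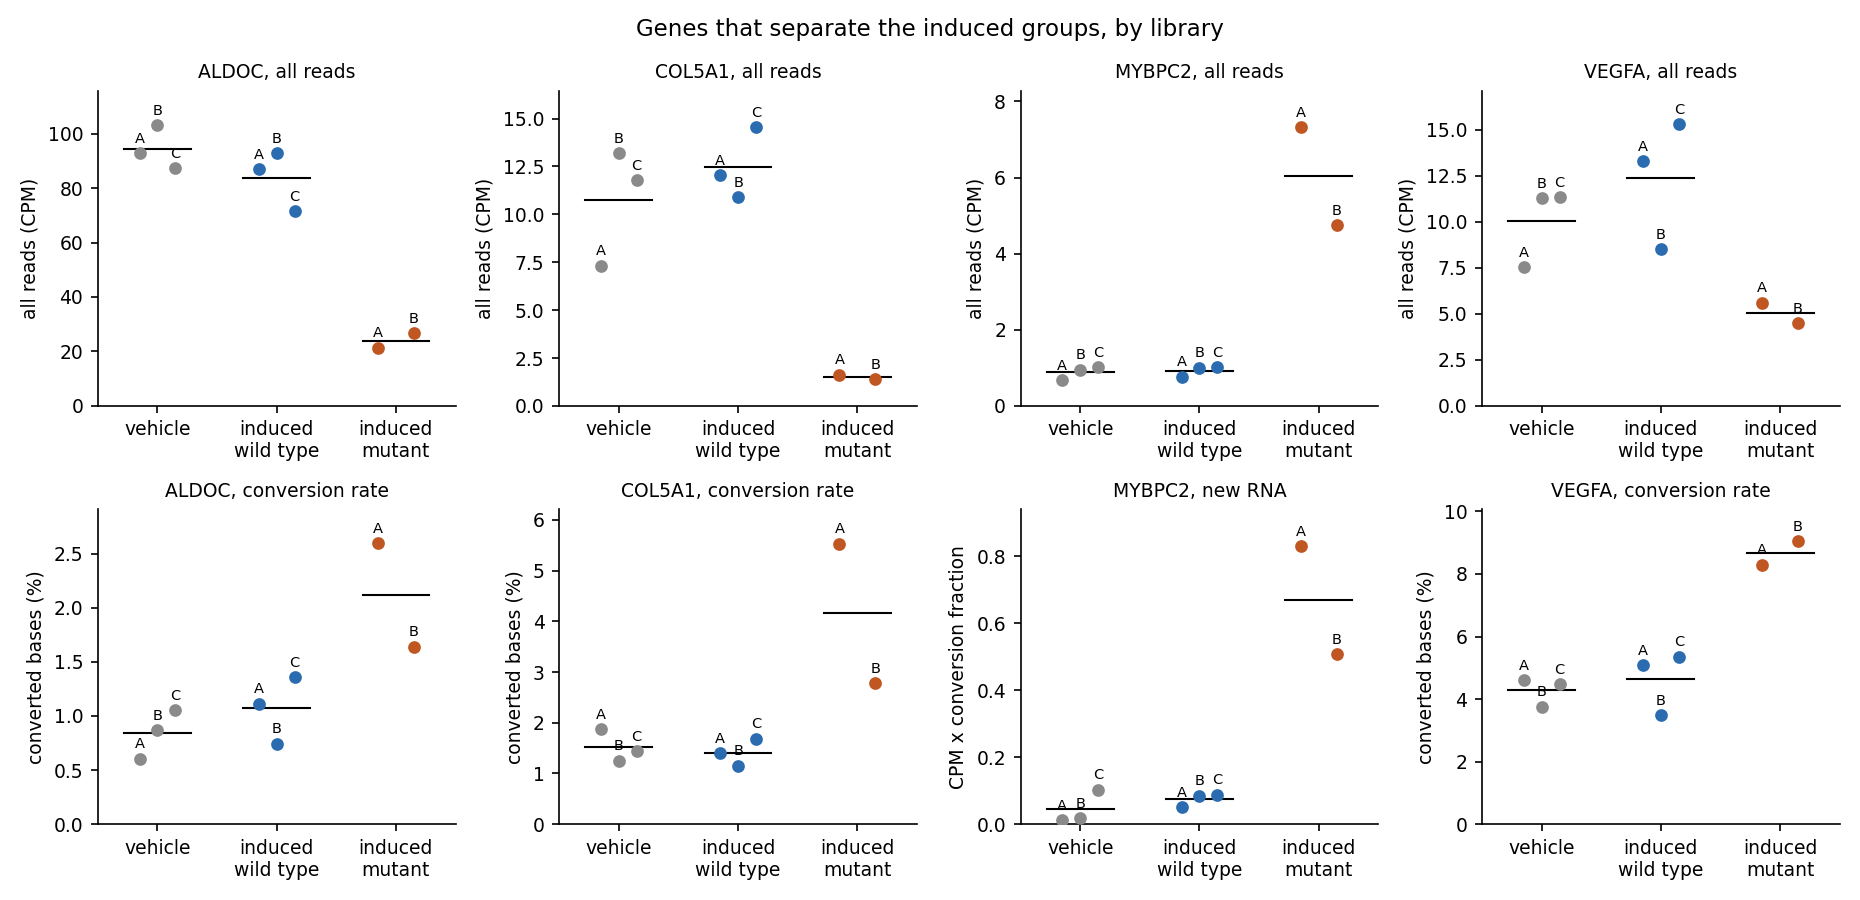
ALDOC, COL5A1, MYBPC2 and VEGFA by library, with all reads in CPM (top) and conversion rate in percent or new RNA as CPM times conversion fraction (bottom). Points are libraries with their letter, bars are group means; ALDOC is at 71.5 to 92.8 CPM in wild type and 21.3 to 26.7 CPM in mutant, and its conversion rate at 0.745% to 1.36% and 1.64% to 2.60%.

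Genes of glycolysis and its hypoxia-linked neighbours lay lower in all reads as a list, and higher in conversion, than genes in general. Glycolysis turns glucose into pyruvate and lactate in the cytosol, and hypoxia-inducible factor raises many of its enzymes together with VEGFA. Of 28 listed genes, 26 passed the filter in all reads; CA9 and SLC16A3 averaged 0.0228 and 0.1495 CPM. In all reads 25 of the 26 had a log2 difference below 0, 12 lay below without overlap (46.2%, against 13.2% of all genes) and 0 above, and 1, ALDOC, was called. The median log2 difference was -0.30, against -0.12 for all genes. After median centring, 22 of 26 lay below 0. Leaving out single libraries gave medians from -0.38 (without mutant B, all genes -0.06) to -0.29 (without mutant A, all genes -0.20).

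In the conversion rate the list lay on the other side. Of 8724 genes tested, 0 were called in limma (0.0%) and 481 had an unadjusted p under 0.05 (5.51%), 243 higher (2.79%) and 238 lower (2.73%). Without overlap were 1903 genes (21.8%), 892 higher (10.2%) and 1011 lower (11.6%). Of the 22 list members tested, 19 were above 0, 13 were higher without overlap (59.1%), 0 were lower without overlap, and 6 had an unadjusted p under 0.05, all higher. The list's median was 0.17, against -0.01 for all genes, and 0.16 to 0.20 when single libraries were left out. Conversion of the other 6 members was not tested for lack of reads. Of 22 members measured in both ways, 18 were lower in all reads and higher in conversion (81.8%), beside 3216 of 8724 genes (36.9%).

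The 2 mutant libraries stood apart from the other 6 in both measures. Relative to the mean of 8 libraries, the list's median in all reads was 0.09, 0.05 and 0.19 in wild type A, B and C, -0.29 and -0.21 in mutant A and B, and 0.09, 0.19 and 0.11 with vehicle. In conversion it was -0.02, -0.06 and -0.01 in wild type, 0.155 and 0.13 in mutant, and -0.11, -0.06 and -0.01 with vehicle. In new RNA 12 members lay above 0 and 10 below, with a median of 0.04, and in converted reads 10 of 20 members lay on each side, with a median of -0.04. Since conversion is a share of a gene's own reads, level and conversion of a gene are not independent measures.

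**Figure D4:**
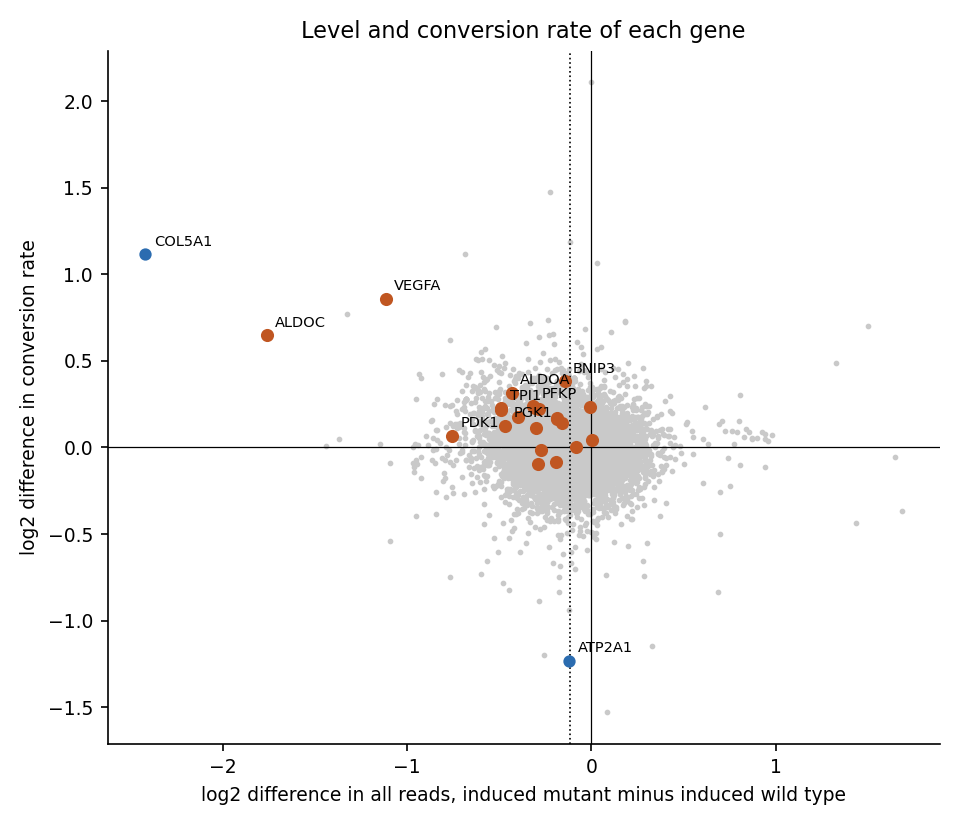
Log2 difference in conversion rate (vertical axis) against log2 difference in all reads (horizontal axis), mutant minus wild type, for 8724 genes in grey and 22 glycolysis and hypoxia-linked genes in orange, with COL5A1 and ATP2A1 in blue. The dotted line marks the median of all genes in all reads, -0.12; 18 of the 22 orange points lie left of 0 and above 0.

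Along the pathway, nearly every step lay below 0 in all reads, as did 9141 of all 12459 genes tested, whose median was -0.12. SLC2A1 and LDHB lay above that median. Glucose uptake had log2 differences in all reads of -0.08 for SLC2A1 and -0.57 for SLC2A3, and the first enzyme of -0.16 for HK1 and -0.19 for HK2. The middle steps were at -0.30 for GPI, -0.29 for PFKL, -0.28 for PFKM, -0.32 for PFKP, -0.43 for ALDOA and -0.49 for TPI1. GAPDH was at -0.19, PGK1 at -0.47, PGAM1 at -0.19, ENO1 at -0.40, ENO2 at -0.66 and PKM at -0.49. At the end of the pathway, LDHA, which makes lactate, was at -0.31, and LDHB, its counterpart, was the only tested member above 0, at 0.00. None of these genes passed the test alone.

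PGK1, phosphoglycerate kinase, had tight values of 536.0, 528.8 and 556.5 CPM in wild type and 395.3 and 386.2 CPM in mutant, with 504.1, 530.3 and 464.5 CPM in vehicle. The mutant libraries lay below all others (log2 difference -0.47, SE 0.14, unadjusted p = 0.00818, adjusted p = 0.9996 in limma). Its conversion rate overlapped, at 1.77%, 1.24% and 2.72% in wild type and 2.82% and 1.31% in mutant, with 0.483%, 0.762% and 1.054% in vehicle. All 5 induced libraries therefore had more PGK1 conversion than the 3 vehicle libraries. PDK1, the kinase that inhibits pyruvate dehydrogenase, was at 8.06, 8.39 and 9.06 CPM in wild type and 3.86 and 5.52 CPM in mutant (-0.755, SE 0.24, unadjusted p = 0.00972).

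VEGFA, the hypoxia-responsive growth factor of blood vessels, was at 13.3, 8.515 and 15.3 CPM in wild type, 5.59 and 4.48 CPM in mutant and 7.54, 11.3 and 11.3 CPM with vehicle. The mutant libraries were the lowest of the 8 (-1.12, SE 0.30, limma adjusted p = 0.9996, DESeq2 adjusted p = 0.0175). Its conversion rate was 5.09%, 3.48% and 5.35% in wild type and 8.29% and 9.045% in mutant (0.86, SE 0.16, adjusted p = 0.457 in limma). New RNA of VEGFA overlapped between the groups, at 0.296 to 0.818 in wild type and 0.405 to 0.464 in mutant. ALDOA, the muscle and general aldolase, showed the same pairing, with a conversion rate of 2.57%, 2.025% and 2.86% in wild type and 3.48% and 2.80% in mutant, which did not overlap after median centring (0.32, SE 0.09, adjusted p = 0.738).

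The promoters of ALDOC and PGK1 are shown because both hold ACGTG, a core bound by hypoxia-inducible factor. These genes are among the 4 list members with the smallest p in all reads, with VEGFA and PDK1. The window of VEGFA is not given here. Capitals mark ACGTG on either strand, which reads CACGT on the other; a CACGTG holds overlapping matches on both strands. The windows are the 250 bases before the RefSeq start, 5′ to 3′ on the gene's strand, in GRCh38.p14: chr17:28576896-28577145 on the minus strand for ALDOC and chrX:78103998-78104247 on the plus strand for PGK1.
ALDOC: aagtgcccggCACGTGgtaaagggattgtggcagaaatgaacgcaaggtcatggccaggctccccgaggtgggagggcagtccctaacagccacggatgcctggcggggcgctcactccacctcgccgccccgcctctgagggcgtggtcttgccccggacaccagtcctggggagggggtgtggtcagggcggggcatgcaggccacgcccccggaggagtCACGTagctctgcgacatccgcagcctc
PGK1: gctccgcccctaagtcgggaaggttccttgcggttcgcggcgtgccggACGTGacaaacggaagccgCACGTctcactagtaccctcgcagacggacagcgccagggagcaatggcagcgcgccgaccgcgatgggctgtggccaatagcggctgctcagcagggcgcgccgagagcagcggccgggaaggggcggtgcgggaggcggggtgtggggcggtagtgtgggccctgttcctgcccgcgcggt

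ALDOC held 3 matches, the nearest 28 bases before the start, and PGK1 held 2, the nearest 183 bases before it. PDK1, also low in both mutant libraries, held 0 in its window. A match occurred in 10 of 23 list promoters found in RefSeq (43.5%), in 2349 of 9843 promoters of genes tested in all reads (23.9%) and in 5101 of 27305 RefSeq promoters (18.7%). A match is a description of these letters alone, counts no other form of the core, and was not tested for binding.

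Genes of the extracellular matrix and adhesion were the other list with a called member. Of 30 genes 14 passed the filter in all reads, 12 of them below 0, with a median of -0.18 against -0.12 for all genes; 5 lay below without overlap (35.7%, beside 13.2% of all genes) and 0 above. The median was -0.33 without wild type B and -0.13 without wild type C. SPARC, a secreted matrix protein, was at 4.10, 5.13 and 5.14 CPM in wild type and 1.93 and 2.67 CPM in mutant (-0.82, SE 0.27). ITGB2, the beta-2 integrin of leukocytes, was at 40.3, 38.6 and 39.6 CPM in wild type and 25.3 and 30.1 CPM in mutant (-0.50, SE 0.18), and its conversion rate was 2.45%, 2.09% and 3.36% in wild type and 4.90% and 2.84% in mutant (0.47, SE 0.15), where mutant B lay below wild type C before median centring. ITGA6, the laminin receptor chain, was at 6.76 to 11.2 CPM in wild type and 4.82 and 4.91 CPM in mutant. SPARC, ITGB2 and ITGA6 thus lay below all wild-type libraries, and each had an adjusted p of 0.9996 in limma.

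Mitotic genes had the lowest median of the lists with more than 30 genes tested, but libraries overlapped. In all reads 33 of 37 mitosis and G2/M genes lay below 0, with a median of -0.34, 5 below without overlap (13.5%, beside 13.2% of all genes) and 0 called. By library the list's median was 0.16, -0.22 and 0.51 in wild type A, B and C and -0.04 and -0.32 in mutant A and B. Wild type C was the highest and wild type B lay between the mutants. Without wild type C the median came to -0.14, where that of all genes was -0.02, and without wild type B to -0.50, beside -0.24. The gap to all genes stayed between -0.27 and -0.12 leaving out single libraries. After median centring, 30 of 37 lay below 0, beside 5706 of 12459 genes. ASPM, a spindle pole protein, was at 15.4, 10.1 and 26.2 CPM in wild type and 9.26 and 7.93 CPM in mutant, and TOP2A, the topoisomerase of mitotic chromosomes, at 49.6, 37.3 and 75.0 CPM and 37.8 and 24.2 CPM, where the groups overlapped.

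S-phase genes lay on both sides, with 14 of 38 above 0 and a median of -0.03, which was -0.16 without wild type B and 0.03 without wild type C. POLE, the catalytic subunit of DNA polymerase epsilon, was at 97.6, 81.9 and 103.6 CPM in wild type and 66.2 and 59.6 CPM in mutant (-0.57, SE 0.18, limma adjusted p = 0.9996). Both mutant libraries lay below all wild-type libraries for POLE.

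Ribosomal and mitochondrial lists moved with single libraries. Cytosolic ribosomal protein genes had a median of -0.05 in all reads, which was -0.30 without mutant B and 0.17 without mutant A, with 0 of 60 apart in either direction, beside 13.2% of all genes lower and 1.8% higher. In conversion 51 of 59 were above 0, with a median of 0.05 (0.03 to 0.08 leaving out single libraries) and 20 higher without overlap (33.9%, beside 10.2% of all genes). Nuclear-encoded respiratory chain genes had a median of 0.09 and 39 of 45 above 0, but -0.11 without mutant B. Mitochondrial ribosome genes had 33 of 42 above 0 in all reads (median 0.10, and 0.00 without mutant B) and 35 of 42 below 0 in conversion (median -0.10, from -0.13 to -0.08 leaving out single libraries), with 9 lower without overlap (21.4%, beside 11.6% of all genes). No member of these lists was called in any measure.

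**Figure D5:**
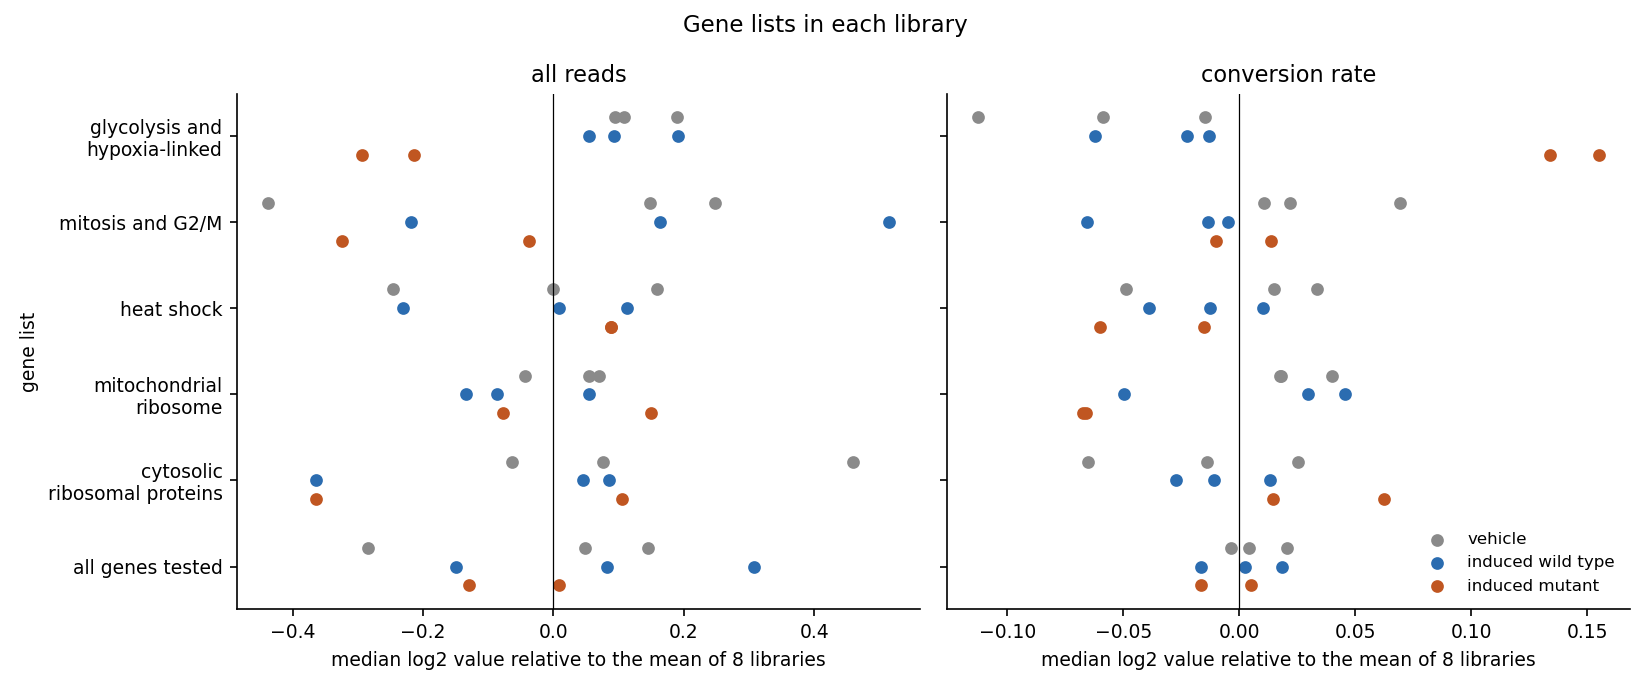
Median log2 value of 5 gene lists and of all genes tested in each library, relative to each gene's mean over 8 libraries, in all reads (left) and conversion rate (right). Grey points are vehicle, blue points wild type and orange points mutant; for the glycolysis list both mutant points lie at -0.29 and -0.21 in all reads and at 0.155 and 0.13 in conversion, outside the other 6 libraries.

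The heat shock list had 12 of 17 members above 0 in all reads, a median of 0.09 (0.01 to 0.13 leaving out single libraries), and 14 of 16 above 0 in new RNA with a median of 0.15. HSPA8, the constitutive HSP70 of the cytosol, was at 511.9, 370.3 and 606.3 CPM in wild type and 729.6 and 650.2 CPM in mutant (0.50, SE 0.24). Its converted reads were 306.4, 251.4 and 247.0 FPKM in wild type and 372.1 and 471.4 FPKM in mutant (0.65, SE 0.22, unadjusted p = 0.00956, adjusted p = 0.9999 in limma). Both mutant libraries lay above all 3 wild-type libraries in both measures, and no chaperone was called.

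Other lists of this cell type and of chromatin gave no call. Of 13 precursor B-cell markers 9 lay below 0, with a median of -0.11, and of 15 pre-B receptor and V(D)J recombination genes 10 did, with -0.08. Of all 12459 genes, 9141 lay below 0, with a median of -0.12. Among 20 precursor B-cell transcription factors (median -0.21) SPIB was at 18.8, 19.5 and 16.4 CPM in wild type and 24.1 and 27.9 CPM in mutant (0.49, SE 0.18), higher without overlap. Polycomb genes had a median of -0.16, histone acetyltransferases and bromodomain readers -0.18, pause release and Mediator genes -0.20, immediate early genes -0.26 (-0.04 without wild type C) and MHC genes -0.18. Among 11 HMG chromatin proteins tested (median -0.12), HMGN2, the close relative of HMGN1, was at 155.2, 142.6 and 144.9 CPM in wild type and 102.3 and 123.0 CPM in mutant (-0.39, SE 0.14, unadjusted p = 0.0211 in limma). Of 20 genes tested from the Down syndrome critical region, which holds HMGN1, 16 lay below 0, with a median of -0.12 like that of all genes. These medians moved with single libraries. So did that of all genes, at -0.24 without wild type B, -0.02 without wild type C, -0.20 without mutant A and -0.06 without mutant B. List medians turned above 0 without wild type C for the transcription factors (0.08) and the Down syndrome region (0.0050). They did so for the acetyltransferases and readers without mutant B (0.05) and the HMG proteins without mutant A (0.04). Without wild type B the median was -0.33 for Polycomb, -0.34 for pause release and Mediator, -0.42 for immediate early and -0.21 for pre-B receptor genes. It came to -0.04 for Polycomb and -0.05 for pause release and Mediator genes without mutant B, -0.04 for MHC genes without mutant A and -0.02 for pre-B receptor genes without wild type C. Without mutant A it was -0.27 for the precursor B-cell markers.

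Among genes with the smallest p in conversion, ATP2A1 stood lowest. ATP2A1 encodes the fast-twitch muscle calcium pump, and its rate was 3.285%, 2.17% and 2.68% in wild type and 0.357% and 0.652% in mutant (-1.23, SE 0.18, adjusted p = 0.395 in limma), at a level of 6.16 to 6.26 CPM and of 6.27 and 5.085 CPM. ASS1, argininosuccinate synthase, combined a lower rate (2.485%, 1.95% and 2.38% against 0.699% and 0.796%) with a higher level (4.87, 4.13 and 3.77 CPM against 5.79 and 9.48 CPM). TSC22D3, the glucocorticoid-induced leucine zipper protein, was lower in both, at 5.25%, 5.915% and 8.37% against 3.26% and 3.14%, and at 5.70, 4.88 and 6.59 CPM against 2.60 and 3.275 CPM. BCAP29 (adjusted p = 0.457) and C12orf73 (adjusted p = 0.586) had lower rates, and their levels overlapped. TSC22D3 in mutant and ASS1 in wild type lay under 5 CPM, so that they passed the conversion filter through the other libraries. On the higher side, CACNB2, a calcium channel subunit, was at 2.44%, 2.44% and 2.89% against 5.245% and 4.21% (0.74, SE 0.12, adjusted p = 0.395), and INPP4A, a phosphoinositide phosphatase, at 8.14%, 7.22% and 9.13% against 11.04% and 10.4%.

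In new RNA 0 of 9658 genes were called in limma (0.0%) and 288 had an unadjusted p under 0.05 (2.98%), 129 higher (1.34%) and 159 lower (1.65%). Without overlap were 1569 genes (16.2%), 692 higher (7.17%) and 877 lower (9.08%). KCNJ12, an inward rectifier potassium channel, was at 0.964, 0.785 and 1.38 in wild type and 2.18 and 1.57 in mutant (1.00, SE 0.20, adjusted p = 0.999). SPSB1 was at 0.184, 0.1496 and 0.280 against 0.710 and 0.309, and MEGF6 at 0.469, 0.355 and 0.720 against 1.01 and 0.693, where mutant B lay below wild type C before median centring. On the lower side FAM69B was at 2.53, 1.48 and 1.97 against 0.781 and 0.674 (-1.12, SE 0.25), CPT1B, the muscle carnitine palmitoyltransferase, at 2.22, 1.29 and 2.55 against 0.936 and 0.889, and GIGYF1 at 2.18, 1.44 and 3.025 against 1.182 and 0.883. Each had an adjusted p of 0.999.

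In converted reads 0 of 5736 genes were called in limma (0.0%) and 169 had an unadjusted p under 0.05 (2.95%), 59 higher (1.03%) and 110 lower (1.92%). Without overlap were 973 genes (17.0%), 297 higher (5.18%) and 676 lower (11.8%). IL6R, the interleukin 6 receptor, had the smallest p. It was at 3.33, 7.80 and 4.72 FPKM in wild type and listed at 0 in both mutant libraries (limma adjusted p = 0.148, and 0.0350 without vehicle A). With 0 in both mutant libraries, IL6R entered the test only through the libraries where it is higher, so its p is no support for a difference. In the other table its level was 9.73, 9.02 and 9.49 CPM in wild type and 10.1 and 6.46 CPM in mutant, and its conversion rate 3.45%, 3.88% and 3.72% against 3.20% and 3.30%. The 2 deposited tables therefore differ for IL6R, which has converted bases in both mutant libraries in the first and no converted reads in the second.

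FAM69B was lower in converted reads as in new RNA, at 14.01, 11.2 and 12.3 FPKM in wild type and 5.94 and 3.58 FPKM in mutant (-1.26, SE 0.37, adjusted p = 0.9999). ACAA1, a peroxisomal thiolase, was at 9.11, 11.2 and 8.82 FPKM against 4.45 and 2.62 FPKM, RECQL4, a DNA helicase, at 4.88, 9.28 and 3.88 FPKM against 1.48 and 0.980 FPKM, and HGS, a sorting protein of endosomes, at 11.1, 7.81 and 14.5 FPKM against 3.26 and 4.23 FPKM. FAM53B at 3.78, 4.87 and 5.95 FPKM against 21.4 and 11.1 FPKM, ZMIZ1, a transcriptional coactivator, at 9.57, 18.5 and 22.8 FPKM against 57.9 and 29.3 FPKM, and ZC3H3 at 5.34, 4.88 and 10.9 FPKM against 19.9 and 13.35 FPKM were higher. For FAM53B, ZMIZ1 and ZC3H3 mutant A was the highest library of the 5, and all 3 overlapped in all reads.

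Converted reads also moved with gene length. Over 5733 genes with a known span the median log2 difference was -0.18 in the shortest of 3 equal groups of genes, -0.05 in the middle and 0.12 in the longest. All reads had no such order, with -0.10, -0.14 and -0.12, and in conversion the medians were -0.04, -0.01 and 0.04. Removing each library's trend with span left the count of called converted-read genes at 0.

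ANKRD30BL and PDE3A were far higher in mutant A than in mutant B. ANKRD30BL was at 624, 1098 and 865 CPM in wild type and 4705 and 1471 CPM in mutant, with 497, 527 and 546 CPM in vehicle (1.65, SE 0.41, limma adjusted p = 0.9996). The log2 difference was 0.81 without mutant A and 2.48 without mutant B. Converted reads of ANKRD30BL were 265, 610 and 330.5 FPKM against 1952 and 765 FPKM (1.69, SE 0.36, adjusted p = 0.682), which passed without wild type B (adjusted p = 0.0321). MIR663B, which lies within ANKRD30BL, was more even between the mutants, at 2.99, 4.51 and 2.90 CPM in wild type and 7.71 and 8.88 CPM in mutant. PDE3A, a cyclic nucleotide phosphodiesterase, was at 221, 385 and 345 CPM against 2071 and 479 CPM, with vehicle at 183, 217 and 200 CPM. SORCS2, a sorting receptor, was at 0.973, 1.88 and 0.942 CPM against 4.34 and 2.76 CPM.

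Lower in both mutant libraries but not called in limma were C8orf73 and PTPRF. C8orf73 was at 9.66, 6.89 and 8.04 CPM in wild type and 2.41 and 2.67 CPM in mutant (-1.37, SE 0.25, adjusted p = 0.627). PTPRF, a receptor tyrosine phosphatase of adhesive contacts, was at 13.5, 15.5 and 16.8 CPM against 5.88 and 5.08 CPM, with 11.4 to 19.3 CPM in vehicle (adjusted p = 0.782). Both were among the 14 calls of DESeq2 (adjusted p = 0.00712 and 0.0148), with ALDOC, COL5A1, LOC101448202, MYBPC2, VEGFA, ANKRD30BL, PDE3A, TMEM131 and the further genes DHRS2, TMPRSS6, RMRP and WDFY3. DHRS2, a mitochondrial dehydrogenase, was at 5.08, 4.51 and 4.28 CPM in wild type against 0.868 and 1.29 CPM in mutant. TMPRSS6, a membrane serine protease, was at 17.5, 17.5 and 21.8 CPM against 9.16 and 6.90 CPM. MYBPC2, ANKRD30BL, PDE3A, RMRP and WDFY3 were the DESeq2 calls that were higher in mutant. RMRP was at 21.4 CPM in mutant A but only 2.76 CPM in mutant B, against at most 2.54 CPM in wild type. WDFY3 was at 0.278, 0.2505 and 0.797 CPM in wild type against 2.41 and 2.33 CPM in mutant, and did not pass the limma filter.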

How the data were processed

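SLAM-seq of 8 NALM6 libraries was used as deposited, and groups and letters came from the labels. Per the submitters' processing notes the build was hg19 (GRCh37); the sources used here name no aligner, conversion caller or strand setting. The deposited all-read signal, named CPM per the file headers, was in each library a whole multiple of 1 read (100% of values within 0.1 read), and those reads served edgeR 4.0.16 and DESeq2 1.42.0 as alternatives. The deposited conversion fraction, named CONVERSION per the file headers, was multiplied by 100; it takes values between 0 and 1 for rows of a single read, so bases are meant. Converted reads were deposited as FPKM. Of 61177 all-read rows, 60133 matched RefSeq by accession, and a gene took its transcript row with the highest mean (27408 genes, 6990 in the FPKM table).

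Fits used limma 3.58.1 with an intensity trend in R 4.3.3, on all 8 libraries in 3 groups without covariates, because 5 libraries leave few degrees of freedom. Values were log2(CPM + 1) and log2(FPKM + 1) at a mean of at least 1, log2(percent + 1) at a mean of at least 5 CPM and 1 CPM in every library, and log2(new RNA + 0.1) at a mean of at least 0.2; conversion and new RNA were centred on library medians. Fold changes of low genes are understated on these scales. Single values had exact permutation tests. The fits were tested on simulated data. Depth was 7.99 to 17.7 M reads.

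Named genes were HMGN1, up to 10 called genes each way with no overlap, or, with fewer than 5 called, the 5 with the smallest p each way, and, for lists described, at most 4 members of smallest p. DHRS2, TMPRSS6, RMRP, WDFY3 and TMEM131 beside HMGN1, as well as the enzymes named along glycolysis and the promoter letters, were chosen after values were seen. The comparison, the gene lists and the tests were chosen with earlier results of these data known. 1 gene that the naming rule selects is not reported here. Genes that overlap or are near-identical may share reads. Python 3.11.15, pandas 2.3.3, numpy 2.4.6, scipy 1.17.1 and matplotlib 3.10.9 made tables and plots.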

Additional observations from a re-analysis of the deposited data

How the results depend on the processing

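Of the single-gene results, 771 recomputed values kept their direction and their side of the threshold, 36 lost a call, 11 gained one and 0 changed sign. All 36 losses fell on the 4 genes called in all reads. ALDOC lost its call in 9 settings and kept it in 15, COL5A1 in 8 and 16, LOC101448202 in 6 and 16, and MYBPC2 in 13 and 10. The other results had no call to lose, and apart from HMGN1 were named for a small p, so their unchanged side and sign say little. The count of 4 called genes in all reads ranged from 0 to 4 when single wild-type or vehicle libraries were left out. It was 1 with a pseudocount of 5 and 14 with DESeq2. With trends added after seeing the data, it was 2 with the GC trend of each library removed and 4 with the span trend removed. Over the same genes without either step it was 2. With quantile normalization the count was 4 and the split without overlap was 1061 higher and 1196 lower. ALDOC also lost its call with median centring (adjusted p = 0.368) in limma, and MYBPC2 with only the 5 induced libraries (adjusted p = 0.190) in limma.

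New RNA gave 1 call without the intensity trend, 2 without a filter and 0 to 1 leaving out libraries. Converted reads gave 1 with only the 5 induced libraries, 1 with a pseudocount of 0.1 and 0 to 3 leaving out libraries (3 without wild type B, 1 without vehicle A). The log2 difference in summed converted reads was 0.05; it turned to -0.0819 as the median of genes above 0 in every library and ranged from -0.11 to 0.20 leaving out libraries, at -0.02 and -0.0024 without wild type A and B. The converted share ranged from -0.91 to 0.33 percentage points, at 0.15 without wild type C. The cause was not tested.

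Whether the replicate letters pair the libraries was not settled. Over 12459 genes, deviations from the group mean had r = -0.362 between wild type A and mutant A and 0.587 between wild type B and mutant B. With only 2 mutant libraries these deviations mirror each other, so r with the other mutant library was 0.362 and -0.587, which cannot decide on pairing. Vehicle and wild type of the same letter had r of 0.287 for A, -0.356 for B and 0.649 for C. With the letter as a replicate block, 3 genes were called in all reads (0 higher and 3 lower) and 0 in each other measure; MYBPC2 had an adjusted p of 0.0511 in limma. The HMGN1 log2 difference in all reads ranged from -0.42 to -0.15 leaving out libraries.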

Other observations

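Genes of the endoplasmic reticulum and of the p53 response, not described above, lay close to or above the general level in the mutant. Of 20 unfolded protein response genes, 10 lay above 0 in all reads with a median of 0.01 (-0.08 without wild type B, 0.09 without wild type C). In new RNA 13 of 18 lay above 0 with a median of 0.15. Of these 18, 6 were higher without overlap (33.3%, beside 7.17% of all genes) and 2 were lower (11.1%, beside 9.08%). Of 23 p53 targets tested, 12 lay above 0 in all reads (median 0.02) and 17 of 22 in new RNA (median 0.11). The p53 median in all reads was -0.20 without wild type B and 0.29 without mutant B.

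Cholesterol synthesis and uptake genes were below 0 in all reads in 17 of 22 cases, with a median of -0.05 (-0.21 without wild type B, -0.03 without mutant B), and 6 were lower without overlap (27.3%, beside 13.2% of all genes). In new RNA 15 of 22 lay above 0, with a median of 0.09 (-0.04 without mutant B). Ribosome biogenesis genes had medians of -0.06 in all reads (-0.15 without wild type B, 0.04 without wild type C) and -0.07 in conversion, where 23 of 30 lay below 0. None of the genes in these 4 lists was called in any measure.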
